A study of Mus musculus with 23 samples.

Results

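The 3 chains of the high-affinity IgE receptor (Fcer1a, Ms4a2 and Fcer1g) and 3 tryptases (Tpsab1, Tpsb2 and Tpsg1) were followed through RNA sequencing of whole mouse jejunum. The 6 genes were picked by name out of the 55487 rows of the raw count table. The series holds 23 libraries in 10 groups, 12 from wild-type Cpa3+/+ mice and 11 from Cpa3Cre/+ mice, which the labels call mast cell-deficient and which carry Cre in 1 allele of Cpa3, the gene for the mast cell granule protease carboxypeptidase A3. Naive mice were untreated. Immunized mice had received 25 µg ovalbumin and 2 mg alum into the peritoneum on day 0 and again on day 14. Challenged mice were immunized likewise and then chose between plain water and water containing 20% egg white and 8% sugar, on study day 20 (challenge day 1), days 20 to 22 (day 3) or days 20 to 24 (day 5). In the order naive, immunized, day 1, day 3 and day 5, there were 3, 2, 3, 2 and 2 Cpa3+/+ and 2, 2, 2, 2 and 3 Cpa3Cre/+ libraries. Females gave 18 libraries, and the 5 male libraries were Cpa3+/+ naive replicate 3, Cpa3Cre/+ naive replicate 2, immunized replicate 1, day 1 replicate 2 and day 3 replicate 2. The sources used here give no strain, age or amount drunk.

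Fcer1a encodes the alpha chain, which binds IgE outside the cell. Ms4a2 encodes the beta chain, which amplifies the signal, and Fcer1g the gamma chain, whose tyrosine motifs recruit the kinase Syk. The alpha and beta chains are characteristic of mast cells and basophils, while the gamma chain also serves IgG receptors and C-type lectins on macrophages, dendritic cells, neutrophils, NK cells and platelets. Tryptases are trypsin-like serine proteases. Tpsb2 and Tpsab1 encode the granule tryptases mMCP-6 and mMCP-7, known above all from connective tissue mast cells, and Tpsg1 encodes a membrane-anchored gamma tryptase. Intestinal mast cells carry IgE receptors in the mucosa and release their granules when antigen crosslinks the bound IgE.

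On GRCm38 Fcer1a (ENSMUSG00000005339) lies at chr1:173221284-173227214, Ms4a2 (ENSMUSG00000024680) at chr19:11615523-11623719 and Fcer1g (ENSMUSG00000058715) at chr1:171229572-171234365, all on the minus strand. The tryptases sit together on chromosome 17: Tpsab1 (ENSMUSG00000024173) at chr17:25343245-25345562 on the minus strand, Tpsb2 (ENSMUSG00000033825) at chr17:25366305-25369098 and Tpsg1 (ENSMUSG00000033200) at chr17:25369273-25374442, both on the plus strand. Only 174 bases separate the end of Tpsb2 from the start of Tpsg1. Tpsg1 shares 158 exon bases with the calcium channel gene Cacna1h on the opposite strand, so reads of these genes could be mixed if counting ignored strand. Transcripts of Tpsab1 and Tpsb2 were 79.8% identical over 812 aligned bases with a longest identical run of 39 bases, so their reads may be split. GENCODE lists Tpsab1 as protein coding and RefSeq as a transcribed pseudogene.

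The RefSeq promoter table (GRCm38.p6) matched 4 of the 6 genes. The 250 bases before the start site are shown because Fcer1a and Ms4a2 moved together across these 23 libraries (r = 0.91), while Fcer1g and Tpsg1, the latter a direct neighbour of Tpsb2, had genotype averages near 0. Capitals mark GATAA or its reverse complement TTATC, the core letters that GATA factors bind.
Fcer1a (chr1:173227230-173227479, minus strand): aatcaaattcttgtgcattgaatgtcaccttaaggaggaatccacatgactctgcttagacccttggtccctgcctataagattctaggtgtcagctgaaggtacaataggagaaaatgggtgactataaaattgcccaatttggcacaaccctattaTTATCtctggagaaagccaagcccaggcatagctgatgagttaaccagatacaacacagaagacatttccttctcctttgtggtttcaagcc
Ms4a2 (chr19:11623720-11623969, minus strand): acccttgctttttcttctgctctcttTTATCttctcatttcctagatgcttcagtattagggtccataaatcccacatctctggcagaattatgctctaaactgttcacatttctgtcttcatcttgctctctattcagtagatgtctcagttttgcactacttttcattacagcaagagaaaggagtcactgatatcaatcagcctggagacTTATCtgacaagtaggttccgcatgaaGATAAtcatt
Fcer1g (chr1:171234350-171234599, minus strand): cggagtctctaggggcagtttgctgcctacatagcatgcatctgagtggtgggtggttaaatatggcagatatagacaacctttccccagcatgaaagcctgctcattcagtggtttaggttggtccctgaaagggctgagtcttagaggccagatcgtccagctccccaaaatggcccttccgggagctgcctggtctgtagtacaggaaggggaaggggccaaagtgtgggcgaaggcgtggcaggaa
Tpsg1 (chr17:25369023-25369272, plus strand): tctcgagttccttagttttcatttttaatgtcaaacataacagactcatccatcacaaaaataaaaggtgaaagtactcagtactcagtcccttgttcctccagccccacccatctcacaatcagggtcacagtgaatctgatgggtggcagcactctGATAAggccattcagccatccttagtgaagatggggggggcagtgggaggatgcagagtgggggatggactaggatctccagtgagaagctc
Fcer1a had 1 such match, at position -92 from the start on the opposite strand, and Ms4a2 had 3, at positions -224, -37 and -10. Fcer1g had 0 matches. Tpsg1 had 1 match, at position -92 from the start shown, and 0 before its other RefSeq start. The letters GATAA occurred on either strand in 7418 of all 32851 such windows (22.6%). The E-box letters CANNTG occurred 2 times before Fcer1a, 1 time before Fcer1g and 0 times before Ms4a2. For Tpsg1 they occurred 0 times before the start shown and 3 times before its other RefSeq start. Of all windows 66.2% had at least 1.

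Total counts ran from 5.48 to 19.34 M (mega) per library with a median of 13.81 M. Levels are given in CPM, counts scaled to library size with TMM factors, at which 1 count is worth less than 0.2 CPM in every library. The targeted gene Cpa3 had 0.827 to 22.1 CPM in Cpa3+/+ and 0.101 to 1.51 CPM in Cpa3Cre/+ libraries. In the library labelled Cpa3Cre/+ naive replicate 1 the Cpa3 level was 1.07 CPM, within the 0.827 to 1.84 CPM of naive Cpa3+/+ libraries. That library also stood apart in tissue make-up, with a summed 8570 CPM of 10 epithelial genes, the lowest of all libraries, and 4170 CPM of 6 smooth muscle and Cajal cell genes, the highest. B cell follicle genes were highest in Cpa3+/+ immunized replicate 1, Cpa3Cre/+ immunized replicate 2 and Cpa3Cre/+ day 1 replicate 2 (140.9, 117.4 and 73.7 CPM summed, against 43.5 in the next library). Epithelial genes marked every library as intestine, with at least 8570 CPM summed. Nothing in the labels ties each library to its own animal, so p-values measure the spread between libraries, which may in part be technical.

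The alpha chain Fcer1a was scarce in unchallenged jejunum and most abundant in challenged Cpa3+/+ jejunum. Its levels in Cpa3+/+ libraries were 0.331, 0.579 and 0.559 CPM in naive, 0.76 and 1.78 in immunized, 0.846, 0.745 and 3.35 on day 1, 5.62 and 4.94 on day 3, and 1.69 and 6.61 on day 5. In Cpa3Cre/+ libraries they were 0.195 and 0.403 CPM in naive, 0 and 0.0764 in immunized, 0.31 and 0.661 on day 1, 0.277 and 0.498 on day 3, and 0.744, 0.874 and 0.753 on day 5. After immunization and on days 1, 3 and 5 the highest Cpa3Cre/+ value was below the lowest Cpa3+/+ value. The naive groups overlapped. Over all 17236 genes tested, a Cpa3Cre/+ group lay wholly below its Cpa3+/+ group in 22.9% (immunized), 9.56% (day 1), 19.4% (day 3) and 14.6% (day 5) of genes, so with groups this small such a separation in a single state is common. Pooled counts gave 149 reads against 14 on day 3, a 13-fold higher level in Cpa3+/+ (95% exact counting interval 7.53 to 24.4), and 120 against 29 on day 5, 5.54-fold (3.66 to 8.62). Of the 120 reads 99 came from Cpa3+/+ day 5 replicate 2, and the day 5 ratio, recomputed without each library in a step chosen after seeing the data, was 2.14 without that library and 8.36 without replicate 1. The immunized ratio, 33 reads against 1, was 33.0 (5.53 to 1340). It was 20.4 without Cpa3+/+ immunized replicate 2 and 16.1 without Cpa3Cre/+ immunized replicate 1. The day 3 ratio moved by less than 1.5 times without any 1 library. These intervals cover counting error only.

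Averaged over the 5 states, Fcer1a fell by 2.89 on the log2 scale in Cpa3Cre/+ jejunum (SE 0.45, n = 12 and 11 libraries, edgeR adjusted p = 0.0283). It was 1 of 5 genes called among 17236, which is 0.029%, and all 5 were lower. At an unadjusted p under 0.05 Fcer1a, Ms4a2 and Tpsb2 counted, against 1.12% of all genes. Since these genes entered the fit mainly through the Cpa3+/+ libraries, that count is a description and nothing is read from it. The other 4 were the mast cell proteases Cpa3, Mcpt1, Mcpt2 and Mcpt9. The exact size is uncertain because the immunized Cpa3Cre/+ group held 1 Fcer1a read. On log2(CPM + 0.5), a scale that understates changes of scarce genes, the mean difference was -1.45, with lower group means in 5 of 5 states. An exact two-sided permutation of genotype within state gave p = 8.33e-05 over 36000 regroupings, whose smallest possible p is 2.78e-05. In all, 15 such genotype tests were run on these genes and their ratios, and their p-values are given unadjusted. In bulk tissue, fewer cells of a type and less RNA per cell cannot be told apart.

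The edgeR call of Fcer1a sat close to its threshold. It ended (adjusted p from 0.0504 to 0.327) without any 1 of 14 libraries: Cpa3+/+ naive replicates 1, 2 and 3, immunized replicate 2, day 3 replicates 1 and 2, and Cpa3Cre/+ naive replicate 1, immunized replicates 1 and 2, day 1 replicate 1, day 3 replicates 1 and 2, and day 5 replicates 1 and 3. It also ended in female libraries alone (-2.86, adjusted p = 0.901 by edgeR) and without the 3 follicle-rich libraries (-3.60, adjusted p = 0.176). The permutation p of Fcer1a was 0.000926 in female libraries and at most 0.00139 without any 1 library.

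**Figure D1:**
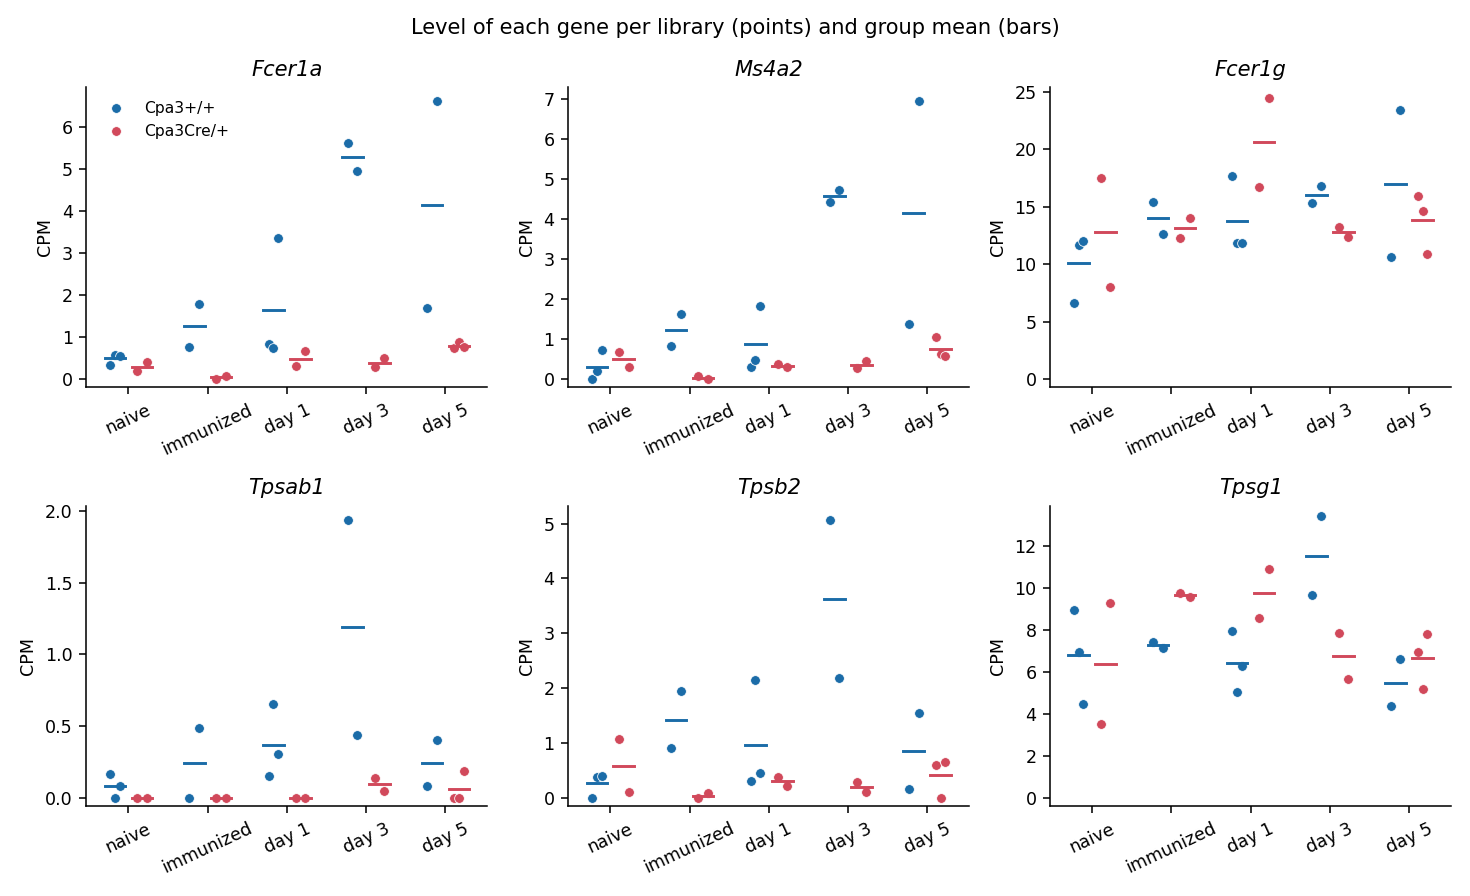
CPM (vertical axes, each panel with its own scale from 0) of the 6 genes in each of the 23 libraries by state, with Cpa3+/+ in blue and Cpa3Cre/+ in red; points are libraries and bars are group means. Fcer1a, Ms4a2, Tpsab1 and Tpsb2 have their highest points in challenged Cpa3+/+ jejunum, whereas Fcer1g (6.61 to 24.5 CPM) and Tpsg1 (3.51 to 13.4 CPM) have similar levels in both genotypes.

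The beta chain Ms4a2 followed the alpha chain. Cpa3+/+ libraries had 0, 0.193 and 0.718 CPM in naive, 0.829 and 1.62 in immunized, 0.308, 0.466 and 1.83 on day 1, 4.44 and 4.72 on day 3, and 1.37 and 6.95 CPM on day 5. Cpa3Cre/+ libraries had 0.683 and 0.302 CPM in naive, 0.0728 and 0 in immunized, 0.372 and 0.294 on day 1, 0.277 and 0.448 on day 3, and 1.04, 0.635 and 0.565 on day 5. Groups were apart, with Cpa3Cre/+ lower, in the immunized, day 3 and day 5 states, and overlapped in the naive and day 1 states. Of all genes tested 22.9%, 19.4% and 14.6% were apart in that direction in those 3 states. Pooled over all states 326 reads stood against 62, a ratio of 5.25 (95% exact counting interval 3.99 to 7.0), close to the 5.93 (4.54 to 7.85) of Fcer1a.

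The state-averaged log2 fold change of Ms4a2 was -2.50 (SE 0.50), which did not pass over all genes (edgeR adjusted p = 0.258). DESeq2 called it (-2.60, adjusted p = 0.00392) among 0.0464% of all genes. So did edgeR without Cpa3+/+ day 5 replicate 1 (-2.69, adjusted p = 0.0496). It was also called by edgeR without the filter on low counts (-2.53, adjusted p = 4.3e-08, 0.153% of 32067 genes called). There the p-value fell far while the estimate hardly moved, and the cause of that was not tested. The permutation of genotype within state found a difference of -1.20 on log2(CPM + 0.5), with p = 0.00558 by the exact test and lower group means in 4 of 5 states. The naive state was the exception, where the fold change was 0.53 (SE 1.03). Without the library labelled Cpa3Cre/+ naive replicate 1 the naive value was -0.69.

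The gamma chain Fcer1g was present at similar levels in both genotypes. Its levels in Cpa3+/+ libraries ran from 6.61 to 23.4 CPM with a median of 12.3, and in Cpa3Cre/+ libraries from 8.05 to 24.5 CPM with a median of 14.0. By group, Cpa3+/+ libraries had 6.61, 11.7 and 12 CPM in naive, 15.4 and 12.6 in immunized, 17.7, 11.8 and 11.8 on day 1, 15.3 and 16.8 on day 3, and 10.6 and 23.4 on day 5. Cpa3Cre/+ libraries had 17.5 and 8.05 CPM in naive, 12.3 and 14.0 in immunized, 16.7 and 24.5 on day 1, 13.2 and 12.4 on day 3, and 15.9, 14.6 and 10.9 on day 5. Only the day 3 groups were apart, Cpa3Cre/+ lower, against a background of 19.4% of genes.

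Averaged over states the log2 fold change of Fcer1g was 0.05 (SE 0.19, approximate 95% interval -0.35 to 0.46, edgeR adjusted p = 1). The interval does not reach the -2.89 of Fcer1a, and 2134 reads in Cpa3+/+ against 2168 in Cpa3Cre/+ made it the best counted of the receptor chains. The permutation difference was 0.05 (p = 0.764 by the exact test). Its sign turned without any 1 of several libraries, so no direction is given for Fcer1g. Of the single states, the largest genotype value was 0.61 (SE 0.39, edgeR adjusted p = 0.647) on day 1, where both Cpa3Cre/+ libraries also had high sums of 11 macrophage genes (470 and 705 CPM against 365 to 420 CPM in Cpa3+/+). The part of macrophage content in that value was not tested.

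The divergence among the receptor chains was tested directly, on genes chosen with earlier results of these data known. Per library, Fcer1a minus Fcer1g on log2(CPM + 0.5) was on average -2.59 in Cpa3+/+ and -4.09 in Cpa3Cre/+, a difference of -1.50 (exact permutation p = 0.000111, lower in 5 of 5 states). Ms4a2 minus Fcer1g differed by -1.25 (exact permutation p = 0.00125, lower in 4 of 5 states). The alpha and beta chains thus fell relative to the gamma chain within the same libraries, which does not depend on the scaling between libraries beyond the pseudocount. Both differences stayed under 0.05 in female libraries (p = 0.000926 and 0.00463 by the exact permutation test) and without any 1 library (at most 0.000903 and 0.00431).

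**Figure D2:**
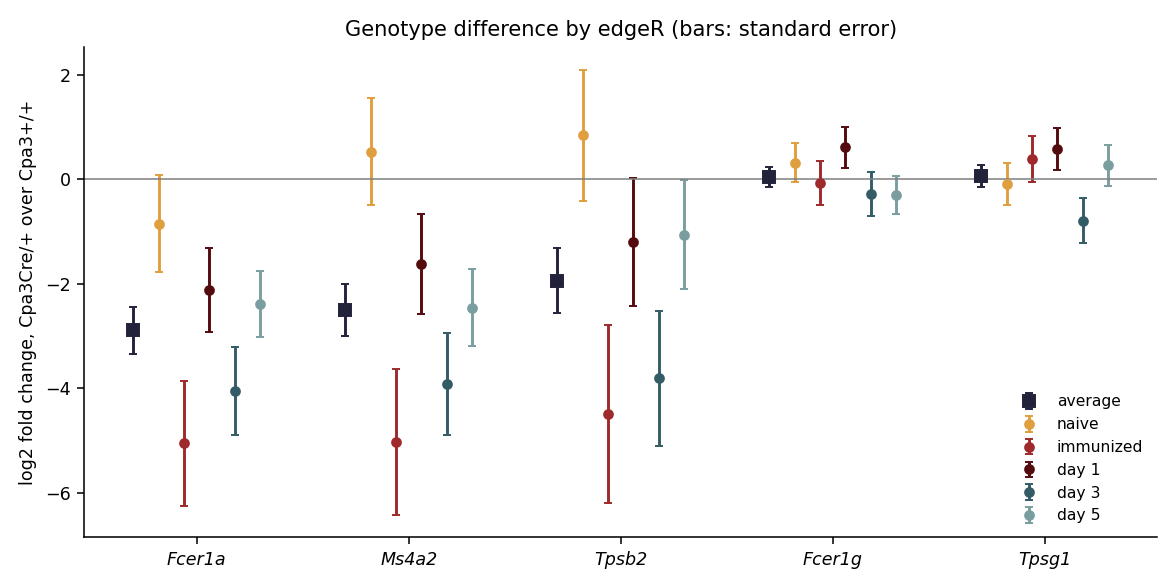
Log2 fold change of Cpa3Cre/+ over Cpa3+/+ (vertical axis) from edgeR for the 5 genes that passed the count filter, with squares for the average over states, circles for single states and bars for 1 standard error. Fcer1a, Ms4a2 and Tpsb2 average -2.89, -2.50 and -1.94, whereas Fcer1g and Tpsg1 average 0.05 and 0.07; only the Fcer1a average passed the threshold.

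Among the tryptases, Tpsb2 was counted well enough for a fit over all genes and Tpsab1 was not. Tpsb2 had 0, 0.386 and 0.399 CPM in naive Cpa3+/+ libraries, 0.898 and 1.95 in immunized, 0.308, 2.14 and 0.457 on day 1, 5.07 and 2.18 on day 3, and 0.161 and 1.54 on day 5. Cpa3Cre/+ libraries had 1.07 and 0.101 CPM in naive, 0 and 0.0764 in immunized, 0.372 and 0.22 on day 1, 0.277 and 0.0996 on day 3, and 0.595, 0 and 0.659 on day 5. The genotypes were apart in the immunized and day 3 states, Cpa3Cre/+ lower, against 22.9% and 19.4% of all genes, and overlapped in the others. The highest Cpa3Cre/+ value, 1.07 CPM, came from the library labelled Cpa3Cre/+ naive replicate 1. On day 3, 103 reads against 6 made a ratio of 21.0 (95% exact counting interval 9.33 to 58.6), which fell to 12.5 when Cpa3+/+ day 3 replicate 1 was dropped. Dropping either Cpa3Cre/+ day 3 library, replicate 1 or replicate 2, made it 36.7 or 13.2. On day 5, 25 against 15 made 2.23 (1.13 to 4.55). Of the 25 reads 23 came from Cpa3+/+ day 5 replicate 2, and without that library the ratio was 0.393 and the fitted log2 fold change was positive, 1.27, so no direction is given for Tpsb2 on day 5. Dropping Cpa3+/+ day 5 replicate 1 made it 3.75, and dropping Cpa3Cre/+ day 5 replicate 2 made it 1.46.

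The state-averaged log2 fold change of Tpsb2 was -1.94 (SE 0.63, edgeR adjusted p = 1), not a call over all genes. Without the filter on low counts it passed (-1.97, edgeR adjusted p = 0.00118), in the fit that called 0.153% of all genes. The permutation difference on log2(CPM + 0.5) was -1.0 (exact p = 0.0205, lower in 4 of 5 states). That result was lost in female libraries (-0.75, exact permutation p = 0.17), without the follicle-rich libraries (-1.07, exact permutation p = 0.0656), without Cpa3+/+ day 5 replicate 2 (exact permutation p = 0.0549) and without Cpa3Cre/+ naive replicate 2 (exact permutation p = 0.0559). Relative to Fcer1g, Tpsb2 was lower by a log2 difference of -1.05 (exact permutation p = 0.00853), which missed the threshold in female libraries (-0.90, exact permutation p = 0.0741) and without the follicle-rich libraries (-1.08, exact permutation p = 0.0523).

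Tpsab1 was the scarcest gene. Its reads numbered 62 over all Cpa3+/+ and 5 over all Cpa3Cre/+ libraries, a pooled ratio of 12.4 (95% exact counting interval 5.03 to 39.5). That ratio was 7.52 when Cpa3+/+ day 3 replicate 1 was dropped. It was 19.1 when Cpa3Cre/+ day 5 replicate 3 was dropped. Cpa3+/+ day 3 replicate 1 alone gave 28 of the 62 reads (1.94 CPM), and every other Cpa3+/+ library had 0 to 0.652 CPM. In Cpa3Cre/+ jejunum 8 of 11 libraries had 0 reads, and the others had 0.0498, 0.139 and 0.188 CPM. On day 1, where 13 reads stood against 0, a floor of 3 reads for the Cpa3Cre/+ group gave a ratio of 3.5. The lower limit of the 95% exact counting interval there was 2.46. The groups were apart on days 1 and 3, Cpa3Cre/+ lower, as were 9.56% and 19.4% of the genes tested, a set without Tpsab1. The permutation difference was -0.64 on log2(CPM + 0.5) (exact p = 0.00133), with lower group means in 5 of 5 states, and it stayed under 0.05 in female libraries (exact permutation p = 0.0417) and without any 1 library (at most 0.0117). Relative to Fcer1g the difference was -0.69 (exact permutation p = 0.0166), or -0.58 (p = 0.0513, exact permutation) without the library labelled Cpa3Cre/+ naive replicate 1.

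Tpsg1 did not share this pattern. Its levels ran from 4.35 to 13.4 CPM in Cpa3+/+ libraries (median 7.04) and from 3.51 to 10.9 CPM in Cpa3Cre/+ libraries (median 7.84). Cpa3+/+ libraries had 8.93, 6.95 and 4.47 CPM in naive, 7.39 and 7.14 in immunized, 7.92, 5.03 and 6.25 on day 1, 9.65 and 13.4 on day 3, and 4.35 and 6.61 on day 5. Cpa3Cre/+ libraries had 3.51 and 9.26 CPM in naive, 9.75 and 9.55 in immunized, 8.56 and 10.9 on day 1, 7.84 and 5.63 on day 3, and 6.92, 5.16 and 7.81 on day 5. The groups were apart in 3 states with no common direction. Cpa3Cre/+ was higher in the immunized state and on day 1, against 24.9% and 13.3% of all genes. It was lower on day 3, against 19.4%.

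The state-averaged log2 fold change of Tpsg1 was 0.07 (SE 0.21, approximate 95% interval -0.38 to 0.52, edgeR adjusted p = 1), and the permutation difference was 0.07 (exact p = 0.72). Its sign turned without some single libraries and in females alone, so no direction is given for Tpsg1. Set against Tpsg1 instead of Fcer1g, in ratios added after the values had been seen, Fcer1a differed by -1.51 (exact permutation p = 0.000389), Ms4a2 by -1.26 (exact permutation p = 0.00572), Tpsb2 by -1.06 (exact permutation p = 0.022) and Tpsab1 by -0.70 (exact permutation p = 0.0112). These 4 p-values were not recomputed under other settings. For Tpsb2, whose own permutation result was lost in 4 settings, the ratio to its neighbour is given as a value only. Cacna1h, which overlaps Tpsg1, had 4.85 to 18.0 CPM in Cpa3+/+ and 4.14 to 30.8 CPM in Cpa3Cre/+ libraries. Its part in the Tpsg1 counts was not tested.

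Compared per kilobase of exon, Fcer1g had the highest median level in Cpa3+/+ libraries, 14.0 CPM per kb, followed by Tpsg1 with 5.07, Fcer1a with 1.27, Tpsb2 with 0.425, Ms4a2 with 0.39 and Tpsab1 with 0.112. In Cpa3Cre/+ libraries the medians were 16.0 for Fcer1g, 5.64 for Tpsg1, 0.403 for Fcer1a, 0.138 for Tpsb2, 0.132 for Ms4a2 and 0 for Tpsab1, in CPM per kb. The gamma chain transcript thus exceeded that of the alpha chain in both genotypes at the median, on the per kilobase scale.

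The filter on low counts (0.724 CPM in enough libraries) passed 5 of the 6 genes, all but Tpsab1. Fcer1a exceeded that level in 8 of 12 Cpa3+/+ and 3 of 11 Cpa3Cre/+ libraries, Ms4a2 in 7 and 2, and Tpsb2 in 6 and 1, so these genes entered the fit mainly through the Cpa3+/+ libraries. Fcer1g and Tpsg1 exceeded it in all 23 libraries.

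In single states edgeR called 0 of the 5 tested genes in any of the 5 genotype comparisons. At an unadjusted p under 0.05 it counted 0 in the naive state, 3 in the immunized state (Fcer1a, Ms4a2 and Tpsb2), 1 on day 1 (Fcer1a), 3 on day 3 (Fcer1a, Ms4a2 and Tpsb2) and 2 on day 5 (Fcer1a and Ms4a2), where the shares of all genes at that level were 5.34%, 0.951%, 7.39%, 1.55% and 9.26%. As Fcer1a, Ms4a2 and Tpsb2 entered the fit mainly through Cpa3+/+ libraries, these counts are a description. DESeq2 called 1 of the 5, Fcer1a on day 3, among 7 of all 17236 genes (0.0406%). The log2 fold changes on day 3 were -4.06 (SE 0.84) for Fcer1a, -3.92 (SE 0.98) for Ms4a2 and -3.81 (SE 1.29) for Tpsb2. In naive jejunum they were -0.85 (SE 0.93), 0.53 (SE 1.03) and 0.84 (SE 1.26) in the same order. Whether the genotype difference was smaller in naive mice than in the other states was not tested.

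The challenge comparisons asked whether these transcripts differ between mice offered the antigen and mice not offered it. Challenged stands for the mean of days 1, 3 and 5, and unchallenged for the mean of the naive and immunized groups. That comparison therefore mixes immunization with challenge, and only the comparisons with immunized mice keep immunization alike. Across both genotypes the group means of Fcer1a placed day 3 and day 5 Cpa3+/+ first, 5.28 ± 0.484 CPM (SD, n = 2) and 4.15 ± 3.48 (n = 2), then day 1 with 1.65 ± 1.48 (n = 3), immunized with 1.27 ± 0.724 (n = 2) and day 5 Cpa3Cre/+ with 0.79 ± 0.0723 (n = 3). Neighbours in this order overlapped. Apart from these and below came naive Cpa3+/+ with 0.49 ± 0.138 CPM (n = 3) and day 1, day 3 and naive Cpa3Cre/+ with 0.486 ± 0.248, 0.388 ± 0.156 and 0.299 ± 0.147 (n = 2 each), again overlapping. Immunized Cpa3Cre/+ jejunum was last with 0.0382 ± 0.054 CPM (n = 2) and lay apart from its neighbour. For neighbours from different states the share of all genes lying apart was not computed.

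Ms4a2 gave a similar order, from 4.58 ± 0.196 CPM on day 3 and 4.16 ± 3.94 on day 5 in Cpa3+/+ (SD, n = 2 each) to 0.0364 ± 0.0515 in immunized Cpa3Cre/+ (n = 2), and all neighbours in it overlapped. Tpsb2 peaked at 3.62 ± 2.04 CPM on day 3 in Cpa3+/+ (n = 2), apart from the next group, immunized Cpa3+/+ with 1.42 ± 0.741 (n = 2). It stood at 0.849 ± 0.973 CPM on day 5 in Cpa3+/+ (n = 2), where the alpha and beta chains were near their highest means. Fcer1g ranged from 10.1 ± 3.01 CPM in naive Cpa3+/+ (n = 3) to 20.6 ± 5.50 on day 1 in Cpa3Cre/+ (n = 2), and Tpsg1 from 5.48 ± 1.6 CPM on day 5 (n = 2) to 11.5 ± 2.63 on day 3 (n = 2), both in Cpa3+/+. The neighbours in the Fcer1g order overlapped apart from the lowest pair, day 3 Cpa3Cre/+ and naive Cpa3+/+. In the Tpsg1 order immunized Cpa3Cre/+ with 9.65 ± 0.148 CPM lay apart from immunized Cpa3+/+ with 7.26 ± 0.179 (n = 2 each). Of all genes tested 24.9% were apart in that direction in that state.

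Challenged minus unchallenged Cpa3+/+ jejunum had a log2 fold change of 2.16 (SE 0.47) for Fcer1a and 2.10 (SE 0.58) for Ms4a2, with edgeR adjusted p = 0.467 and 0.768. Neither passed, and no gene of the 17236 was called in this comparison. At an unadjusted p under 0.05 both counted among 6.34% of all genes. DESeq2 called Fcer1a (2.16, adjusted p = 0.0249) among 11 of 17236 genes (0.0638%). Without the filter on low counts edgeR called Fcer1a (adjusted p = 6.67e-05) and Ms4a2 (adjusted p = 0.000678) among 157 of 32067 genes (0.49%). Day 3 and day 5 minus immunized Cpa3+/+ each had 2 of the 5 genes at an unadjusted p under 0.05, Fcer1a and Ms4a2 (4.93% and 9.29% of all genes), and day 1 minus immunized had 0 (5.37%). Immunized minus naive had 1, Ms4a2 (1.69%). None passed over all genes. The log2 fold changes of Fcer1a and Ms4a2 were 1.54 (SE 0.77) and 2.05 (SE 0.96) for immunized minus naive. Against immunized they were 0.40 (SE 0.66) and -0.46 (SE 0.78) on day 1. On day 3 they were 2.06 (SE 0.69) and 1.91 (SE 0.81), and on day 5 1.72 (SE 0.69) and 1.78 (SE 0.81). For challenged minus unchallenged Cpa3+/+ the values of Tpsb2, Fcer1g and Tpsg1 were 0.92 (SE 0.72), 0.37 (SE 0.25) and 0.09 (SE 0.26), with edgeR adjusted p = 0.809, 0.784 and 0.960.

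The same comparison in Cpa3Cre/+ jejunum gave 2.26 (SE 0.75) for Fcer1a and 1.68 (SE 0.87) for Ms4a2, both at an edgeR adjusted p of 1. Fcer1a alone had an unadjusted p under 0.05 there (2.98% of all genes), as on day 1 (2.12%) and day 3 (4.31%) against immunized. Pooled reads of Fcer1a in Cpa3Cre/+ mice were 6 in naive and 1 in immunized against 14, 14 and 29 on days 1, 3 and 5. Day 5 minus immunized was 4.40 (SE 1.20) for Fcer1a and 4.35 (SE 1.41) for Ms4a2, with edgeR adjusted p = 0.206 and 0.306, and both had an unadjusted p under 0.05 (9.74% of all genes). Immunized minus naive had 1 such gene, Ms4a2 (13.1%). In the day 5 comparison 6 genes were called (0.0348%), all lower and none of them a receptor chain or tryptase. Every day 5 Cpa3Cre/+ library (0.744 to 0.874 CPM of Fcer1a) lay above both immunized ones (0 and 0.0764 CPM). The share of all genes with that separation was not computed. The comparisons with immunized mice share those 2 libraries within a genotype.

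The genotype difference of the challenge response was not called for any of these genes. For challenged against unchallenged it was 0.10 for Fcer1a (edgeR unadjusted p = 0.819, adjusted p = 1) and -0.42 for Ms4a2 (unadjusted p = 0.822, adjusted p = 1). With 4 unchallenged Cpa3Cre/+ libraries that hold 7 reads of Fcer1a in all, these differences rest on few counts. Against immunized mice alone the response differences of Fcer1a were 2.95 (SE 1.46) on day 1, 1.0 (SE 1.38) on day 3 and 2.67 (SE 1.45) on day 5, with edgeR unadjusted p = 0.0593, 0.478 and 0.0825 and adjusted p = 0.845, 1 and 1. Those of Ms4a2 were 3.41 (SE 1.73), 1.1 (SE 1.62) and 2.57 (SE 1.69) in the same order, with edgeR unadjusted p = 0.0651, 0.505 and 0.146. All 6 values lay toward a larger response in Cpa3Cre/+ and none was called, and they share the immunized Cpa3Cre/+ libraries with 1 read of each gene. In all 4 response differences 0 of 5 genes had an unadjusted p under 0.05, against 0.708% to 4.07% of all genes, and DESeq2 called 0.

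The balance of receptor chains and tryptase within Cpa3+/+ mice was looked at after the values had been seen. Fcer1a minus Tpsb2 on log2(CPM + 0.5) was 1.73 and 1.80 in the day 5 libraries and -0.15 and -0.10 in the immunized ones, but on day 1 it ran from -1.09 to 2.01. The mean was 0.91 in 7 challenged and 0.20 in 5 unchallenged libraries, a difference of 0.71 that did not exceed the spread (exact permutation p = 0.205, 792 regroupings). Ms4a2 minus Tpsb2 differed by 0.61 (exact permutation p = 0.289). Fcer1a minus Ms4a2 was 0.34 ± 0.31 challenged (SD, n = 7) and 0.24 ± 0.42 unchallenged (n = 5), and single libraries ran from -0.20 to 0.74. The difference of 0.10 did not exceed the spread (exact permutation p = 0.64), which does not show that this balance was constant.

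Likeness of pattern was described as Pearson's r of log2 CPM over the 23 libraries, against all other tested genes and with no p, since libraries share genotype and state. The 5 genes most like Fcer1a were Mcpt1 (r = 0.94), Mcpt2 (0.93), Mcpt4 (0.91), Mcpt9 (0.91) and Ms4a2 (0.91). The first 4 are proteases of mast cell granules. Within the 12 Cpa3+/+ libraries r with Mcpt1 was 0.98 and with Ms4a2 0.95, and within the 11 Cpa3Cre/+ libraries 0.86 and 0.76. Mcpt1 itself had 8.10 to 397 CPM in Cpa3+/+ and 4.37 to 67.9 CPM in Cpa3Cre/+ libraries, so the alpha chain was far scarcer than this protease.

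Fcer1g had other companions. Its 5 closest genes were Sirpb1c (r = 0.87), Ly86 (0.86), Adora3 (0.84), Fcgr1 (0.84) and Cd300lf (0.82), among them Fcgr1, the high-affinity IgG receptor of myeloid cells. Within Cpa3Cre/+ libraries r with Sirpb1c and Ly86 was 0.92. Between Fcer1g and Fcer1a r was 0.28 over all 23 libraries, 0.63 within Cpa3+/+ and 0.12 within Cpa3Cre/+. The Fcer1g level equalled 2.11 to 6.49% of the summed CPM of the 11 macrophage genes, with medians of 3.92% in Cpa3+/+ and 4.24% in Cpa3Cre/+.

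**Figure D3:**
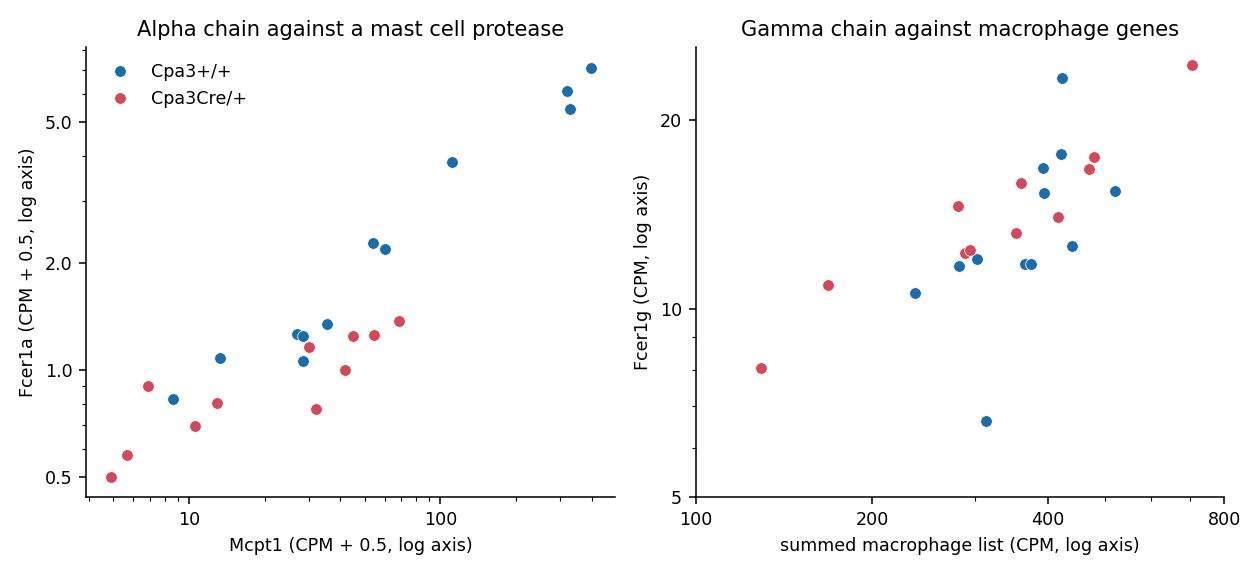
Left, Fcer1a against Mcpt1 (both CPM + 0.5, log axes); right, Fcer1g against the summed macrophage list (both CPM, log axes); each point is 1 of 23 libraries, blue Cpa3+/+ and red Cpa3Cre/+. On the left the Cpa3Cre/+ points fill the low end (Fcer1a 0 to 0.874 CPM), and on the right both genotypes cover the same range of Fcer1g.

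The closest genes of the tryptases, chosen for this description after the data had been seen, differed as well. Tpsb2 was most like Cpa3 (r = 0.76), Ms4a2 (0.74), Mcpt4 (0.68), Cma1 (0.68) and Fcer1a (0.66). Within Cpa3Cre/+ libraries, where counts were few, these values ran from 0.25 to 0.73. Tpsg1 was most like Fbxl8 (0.90), Tlnrd1 (0.90), Zfp703 (0.89), Jund (0.88) and Nr2f6 (0.86), none of them a mast cell gene by textbook knowledge. Its r with Fcer1a was 0.05 and with Ms4a2 -0.09.

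Most other mast cell genes had lower values in Cpa3Cre/+ jejunum, 10 of 13 tested. Of these 13 tested genes in a list of 17 mast cell genes, 4 fell over all genes (log2 fold changes of -3.05 for Cpa3, -2.83 for Mcpt9, -2.31 for Mcpt1 and -2.30 for Mcpt2, edgeR adjusted p = 0.0102, 0.0342, 0.0283 and 0.0369) and 0 rose. The median of the 13 was -1.85 against 0.03 over all genes. Of all genes tested 0.029% were called. Mean Cpa3Cre/+ levels of Mcpt9, Cma2 and Cma1 were 0.623, 0.32 and 0.22 CPM, below the filter level of 0.724 CPM. Such genes may have entered the fit mainly through Cpa3+/+ libraries, and Cpa3 is the targeted gene itself. The counts and the median of this list are therefore a description. Kit, the stem cell factor receptor that Cajal cells also carry, had -0.15 (SE 0.20), and Gata2, a transcription factor of mast cells, -0.37 (SE 0.30), both at an edgeR adjusted p of 1.

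Genes that act downstream of the IgE receptor were not called. Of 28 listed signalling genes, all tested, edgeR called 0 in the genotype average, with 0 at an unadjusted p under 0.05 and 0 by DESeq2, and the median was 0.11. Their smallest unadjusted p-values belonged to Ltc4s, leukotriene C4 synthase (0.41, SE 0.33), the adaptor Dok1 (0.20, SE 0.16) and the adaptor Lat2 (0.21, SE 0.18). The kinases next to the receptor, Lyn and Syk, had 53.4 ± 8.10 and 25.8 ± 6.12 CPM in Cpa3+/+ (SD, n = 12) and 55.7 ± 7.65 and 24.2 ± 5.58 CPM in Cpa3Cre/+ (n = 11). In the other 19 comparisons 0 of the 28 were called by edgeR or DESeq2, and 0 to 3 had an unadjusted p under 0.05, a level that 0.708% to 13.1% of all genes reached.

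Receptors of a list drawn up around the gamma chain were not called either. Not every listed receptor signals through that chain, with Fcgr2b and Pirb among the exceptions. Of 13 listed receptors 8 were tested and 0 were called in the genotype average by edgeR or DESeq2, with 0 at an unadjusted p under 0.05 and a median of 0.06. The IgG receptor Fcgr3 had 12.5 ± 2.76 CPM in Cpa3+/+ (SD, n = 12) and 12.4 ± 5.21 in Cpa3Cre/+ (n = 11). The smallest p-values were those of Cd300lb (-0.42, SE 0.44), Pirb (0.25, SE 0.28) and Ncr1 (0.15, SE 0.29).

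Of 9 other serine protease genes of the tryptase locus, 5 were tested and 0 called by edgeR or DESeq2 in the genotype average, with 0 at an unadjusted p under 0.05 and a median of -0.10. Prss32 had 132 ± 14.7 CPM in Cpa3+/+ (SD, n = 12) and 140 ± 29.8 in Cpa3Cre/+ (n = 11), Prss30 28.0 ± 5.36 and 28.0 ± 11.9. Prss28 and Prss29 had 0 reads in every library. Of 9 genes of the granule matrix and amines, 8 were tested and 0 called by edgeR or DESeq2 in the genotype average. There 1 of the 8, Tph1, had an unadjusted p under 0.05, as did 1.12% of all genes. Tph1 makes serotonin in mast cells and in enterochromaffin cells. Smallest in p were Tph1 (-0.67, SE 0.23), Slc18a2 (-0.59, SE 0.32) and, in the other direction, Hs3st1 (0.17, SE 0.16). Of 8 other genes of IgE and its setting, 5 were tested and 0 called by edgeR or DESeq2 in the genotype average, with 0 at an unadjusted p under 0.05. Il4, Il13 and Il9 stayed under 1 CPM in every library.

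Markers of other cells that carry the receptor chains were read beside these results. Basophil markers summed to 0.805 to 3.78 CPM in Cpa3+/+ and 1.32 to 3.89 CPM in Cpa3Cre/+ libraries over 6 genes. Of the 6 genes 5, among them the defining Mcpt8 and Prss34, were under 1 CPM in every library. Only 1, Il3ra, was tested, with means of 1.45 CPM in Cpa3+/+ and 1.69 CPM in Cpa3Cre/+. The sum rests mostly on that gene, so it cannot show whether basophils changed. Macrophage genes (11 of 11 tested, 0 called by edgeR or DESeq2 in the genotype average, 0 at an unadjusted p under 0.05) summed to 237 to 521 CPM in Cpa3+/+ and 129 to 705 CPM in Cpa3Cre/+. Dendritic cell genes summed to 25.7 to 71.9 and 21.0 to 90.0 CPM, NK and T cell genes to 24.5 to 72.0 and 28.2 to 95.5, neutrophil genes to 1.74 to 5.90 and 1.31 to 17.6, platelet genes to 2.82 to 12.4 and 2.92 to 7.91, and eosinophil genes to 5.12 to 24.8 and 3.52 to 32.0. In each of these lists 0 genes were called in the genotype average by edgeR or DESeq2. The same held for the lists of basophil, follicle, epithelial, ileum and colon, and muscle genes. Over these lists 1 gene, the platelet receptor Gp1ba, had an unadjusted p under 0.05, a level that 1.12% of all genes reached. Its value was -2.91 (SE 0.90), with means of 0.404 CPM in Cpa3+/+ and 0.0662 CPM in Cpa3Cre/+, both below the filter level. The other tested platelet genes, Itga2b and Pf4, had -0.41 (SE 0.22) and 0.32 (SE 0.23). Not all listed genes were tested: 3 of 6 platelet, 4 of 8 neutrophil, 6 of 8 eosinophil, 9 of 10 NK and T cell and 2 of 4 ileum and colon genes were. The part of these cells in the level of Fcer1g was not tested.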

How the data were processed

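RNA of 23 whole jejunum libraries (fat and Peyer's patches removed) was prepared with a PureLink kit and a stranded TruSeq kit, per the labels' protocols. The deposited values are raw read counts per Ensembl gene, made by the authors with STAR and featureCounts of Subread 1.5.1 on mm10/GRCm38, per the submitters' processing notes. The sources used here give no annotation release, STAR version or strand setting. GENCODE vM21 gave symbols to 55141 of 55487 genes, and the rest held 0.0305% of the reads. Genes passing edgeR's filterByExpr (minimum count 10, 17236 genes) were fitted with edgeR 4.0.16 (TMM, robust quasi-likelihood, 10 group means plus sex, 12 residual degrees of freedom, biological coefficient of variation 28.6%). P-values were Benjamini-Hochberg adjusted over all genes, threshold 0.05, in 20 comparisons. A standard error is the size of a log2 fold change divided by the root of its F value, approximate where counts are few. It is not printed for the genotype difference of challenged minus unchallenged. For response differences against immunized mice it is printed and rests on few counts. Single values were tested by exact permutation of genotype within state. DESeq2 1.42.0 was an alternative. Both tests were checked on simulated data. The genes and the 17 comparison lists were chosen with earlier results of these data known. Named genes are the 6 genes, Cpa3, called list members or else up to 3 with the smallest p, and the 5 most like Fcer1a and Fcer1g. Those like Tpsb2 and Tpsg1, and Mcpt1, Kit, Gata2, Lyn, Syk, Fcgr3, Prss30, Prss32, Cacna1h and genes under 1 CPM, were added later.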

Additional observations from a re-analysis of the deposited data

How the results depend on the processing

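The genotype average called 1 of these genes and 5 genes in all. Those counts were 4 and 49 with no filter on low counts, 2 and 8 by DESeq2, and 0 and 0 in female libraries only, with the replicate block, and, in settings chosen after seeing the data, without the 3 libraries richest in follicle transcripts, without the 3 farthest out on 3 principal components (Cpa3Cre/+ naive replicate 1, Cpa3+/+ day 1 replicate 2 and Cpa3Cre/+ day 5 replicate 3) and without naive libraries. Leaving out 1 library at a time, they ran from 0 to 2 and from 0 to 7. Fcer1a kept its sign in all settings, -3.51 to -2.68 over single omissions and -2.49 with the replicate block (edgeR adjusted p = 0.0978). Libraries share only a number. Over the 45 pairs among libraries numbered 1, r of deviations ran from -0.31 to 0.56 with a median of 0.03. Pairs with other numbers were not summarized in this way. Of 23 libraries 9 correlated best with a library of their own number, and the count to expect by chance was not computed.

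With no filter, 3 of these genes were called in the immunized state, 3 on day 3, 2 on day 5, 2 in challenged against unchallenged Cpa3+/+ and 2 in day 5 against immunized Cpa3Cre/+, among 77, 49, 466, 157 and 341 of all 32067 genes (0.24%, 0.153%, 1.45%, 0.49% and 1.06%). DESeq2 called 1 on day 3 and 1 in challenged against unchallenged Cpa3+/+, among 7 and 11 of 17236 genes. In immunized against naive Cpa3Cre/+ Tpsg1 had a log2 fold change of 0.60 (SE 0.43) in the main fit. Its call changed only without Cpa3Cre/+ naive replicate 2, which leaves 1 library in the naive group. Many other genes changed their call in that fit too, so nothing is read from it. The cause of these changes was not tested.

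In the permutation tests Fcer1a, Ms4a2 and Tpsab1 kept sign and side under every setting run. Tpsb2 was -0.75 in females and -1.07 without the follicle-rich libraries, -1.16 to -0.84 over single omissions, and Tpsb2 minus Fcer1g was -0.90 and -1.08. Tpsab1 minus Fcer1g was -0.84 to -0.53. Fcer1g was -0.01 without naive libraries and -0.05 without the principal component trio, and -0.06 to 0.16 over single omissions. Tpsg1 was -0.10 in females and -0.06 to 0.19, and Tpsg1 minus Fcer1g -0.26 in females and -0.22 to 0.25.

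Signs of uncalled fold changes also turned. The state-averaged Fcer1g was -0.00065, -0.18 and -0.09 without the follicle-rich, principal component and naive libraries and -0.17 to 0.15 over single omissions. State-averaged Tpsg1 was -0.16 in females and -0.12 to 0.31. Naive values without the principal component trio were -0.76 for Ms4a2, -0.50 for Fcer1g, -1.28 for Tpsb2 and 0.61 for Tpsg1. Over single omissions they ran from -0.69 to 1.93, -0.45 to 0.74, -1.22 to 1.74 and -1.09 to 0.65, the sign turning without the library labelled Cpa3Cre/+ naive replicate 1. The naive Tpsg1 sign also turned without Cpa3+/+ naive replicate 1. Immunized Fcer1g was 0.07 without the follicle-rich libraries and -0.27 to 0.04. Day 1 Tpsb2 ran from -1.63 to 0.08, positive without Cpa3+/+ day 1 replicate 2. On day 5 Fcer1g ran from -0.77 to 0.35 and Tpsb2 from -1.89 to 1.27, both positive without Cpa3+/+ day 5 replicate 2, and Tpsg1 from -0.01 to 0.57. Challenged against unchallenged Tpsg1 was -0.06 in females and -0.06 to 0.23 in Cpa3+/+, and 0.00033 with no filter, 0.44 in females and -0.43 to 0.44 in Cpa3Cre/+. Fcer1g there was -0.06 in females.

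Depth limits Tpsab1 in all states and Fcer1a, Ms4a2 and Tpsb2 in immunized Cpa3Cre/+ jejunum, where each had 1 read in 2 libraries.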
